A study of Mus musculus with 6 samples.

Results

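The genes described here encode the digestive enzymes, nutrient transporters, lipid-handling proteins and surface proteins of the enterocyte, the absorptive cell of the small intestine. They are 39 genes chosen by name, with earlier results of these data known, of the 34866 rows of the deposited table. All 39 have a row there. Of these, 32 passed a filter on low counts and were tested, and 7 (Lct, Treh, Mep1a, Apoc3, Cubn, Guca2a and Guca2b) did not. The filter asks for about 10 counts in at least 3 libraries, so a gene that is near 0 in wild type entered the test only if all 3 knockout libraries held it. That was so for Sis, Mep1b, Adgrg7, Slc2a2 and Slc15a1, so higher knockout levels were a condition of testing them. The same holds for genes of the further lists below that are near 0 in wild type. Counts over the tested genes are therefore not counts over all 39.

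Enterocytes carry a brush border of microvilli, and its outer face holds enzymes that cut sugars and peptides to units that sodium- or proton-driven transporters then carry into the cell. Dietary fat enters as fatty acids and monoglycerides, is bound by fatty acid-binding proteins, is rebuilt to triglyceride in the endoplasmic reticulum and leaves in chylomicrons, particles built on apolipoprotein B. The healthy stomach lining digests without absorbing most nutrients, and the appearance of intestinal cell types in it is called intestinal metaplasia. The transcription factors CDX1 and CDX2 set intestinal identity, and HNF4 and HNF1 factors act on many enterocyte promoters.

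The libraries are bulk RNA-seq, made with a stranded mRNA kit, of mouse gastric antrum mucosa, the lining of the distal stomach, from Muc6 +/+ mice (wild type 1 to 3) and Muc6 -/- mice (knockout 1 to 3), with no treatment named. Muc6 encodes a gel-forming mucin that antral gland cells secrete, and the study asks how MUC6 relates to cancer formation in the stomach. The labels name no strain, age, sex or method of making the allele, and do not say that the libraries came from separate mice, and so p-values measure the spread between these libraries, which may be technical. Total estimated counts were 19839799 to 21354029 per library, and 1 count was worth 0.0416 to 0.058 CPM (counts scaled by library size after TMM composition scaling). Muc6 had 396, 403 and 510 CPM in wild type 1, 2 and 3, against 0.0425, 0 and 0 CPM in knockout 1, 2 and 3. The surface mucous genes Gkn1, Gkn2, Tff1 and Muc5ac, which mark stomach lining, summed to 157200 to 181500 CPM in wild type, against 37210 to 47700 CPM in the knockout. The 5 markers of the gastric body, the acid-secreting region, summed to 117, 398 and 487 CPM in wild type 1, 2 and 3, against 11.9 to 78.5 CPM in the knockout. The acid pump genes Atp4a and Atp4b fell, with log2 fold changes of -5.81 and -6.67 (adjusted p = 0.0204 and 0.0259). Their part in the results below was not tested. The antral factor gene Pdx1 was at 29.4 to 42.1 and 54.9 to 61.2 CPM. The 4 Y-linked genes examined summed to 5.85 to 6.73 CPM in wild type, against 131.7 to 138.7 CPM in the knockout, so sex and genotype cannot be told apart in any difference given here. Fewer cells of a type and less RNA per cell cannot be told apart in bulk libraries either.

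Promoters are shown for 4 genes whose values differ most in kind: Sis, near 0 in wild type and present in the knockout, the neighbouring phosphatase genes Akp3 and Alpi, which differed in how evenly the knockout libraries held them, and Fabp2, which was lower in the knockout. Each is the RefSeq window from 250 bases before to 50 after the gene's start on GRCm38.p6, the assembly of mm10, written 5′ to 3′ on the gene's strand: chr3:72967814-72968113 (minus strand) for Sis, chr1:87124704-87125003 (plus) for Akp3, chr1:87101557-87101856 (minus) for Alpi and chr3:122894822-122895121 (plus) for Fabp2. Capitals mark exact matches on either strand to 5 words known from intestinal promoters: TTTAT of CDX proteins, CAAAGTCCA of HNF4 proteins, GTTAAT of HNF1 proteins, AGATAA of the zinc finger proteins named for that core, here called the GATA word, and TATAAA of the general start-site box. The reverse complement of the last word holds the CDX word, so matches to both overlap.
Sis: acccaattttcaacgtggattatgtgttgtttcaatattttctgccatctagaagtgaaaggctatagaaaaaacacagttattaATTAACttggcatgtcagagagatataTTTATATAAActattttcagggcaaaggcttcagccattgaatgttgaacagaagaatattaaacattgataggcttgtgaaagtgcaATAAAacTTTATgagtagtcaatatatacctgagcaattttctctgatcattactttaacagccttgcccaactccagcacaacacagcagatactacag
Akp3: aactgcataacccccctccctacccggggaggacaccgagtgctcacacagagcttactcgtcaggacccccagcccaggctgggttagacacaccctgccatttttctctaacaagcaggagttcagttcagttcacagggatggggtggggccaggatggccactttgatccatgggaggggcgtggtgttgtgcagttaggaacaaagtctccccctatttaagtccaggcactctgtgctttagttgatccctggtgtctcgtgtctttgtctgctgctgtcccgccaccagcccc
Alpi: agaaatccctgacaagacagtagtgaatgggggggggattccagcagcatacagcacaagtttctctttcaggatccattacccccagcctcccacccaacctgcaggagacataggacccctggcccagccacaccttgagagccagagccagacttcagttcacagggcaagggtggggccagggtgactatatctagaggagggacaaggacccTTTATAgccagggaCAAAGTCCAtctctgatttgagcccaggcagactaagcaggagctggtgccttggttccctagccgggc
Fabp2: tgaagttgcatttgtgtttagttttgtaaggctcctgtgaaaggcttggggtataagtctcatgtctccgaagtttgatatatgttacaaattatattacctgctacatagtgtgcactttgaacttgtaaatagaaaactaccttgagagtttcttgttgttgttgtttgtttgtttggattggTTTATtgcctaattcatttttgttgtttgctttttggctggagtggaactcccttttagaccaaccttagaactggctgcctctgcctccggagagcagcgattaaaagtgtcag

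The Sis window held 4 matches to the CDX word, 2 to the TATA word and 1 to the HNF1 word, and the CDX words began 138 and 133 bases before the start, where they overlap the TATA words, and 50 and 43 bases before it. The Alpi window had a CDX word inside a TATA word, both beginning 33 bases before the start, and an HNF4 word 19 bases before it. The Akp3 window held none of the 5 words, and Fabp2 had 1 CDX word, 65 bases before its start. Of the 39 genes, 32 had a window in the RefSeq table. The CDX word stood in 15 of these (46.9%) against 40% of all 32851 windows, and the HNF4 word in 2 (Alpi and Treh) against 0.475%. The HNF1 and GATA words stood in 5 windows each (15.6%), against 7.1% and 11.2%, and the TATA word in 8 (25%) against 13.6%. A match is a run of letters, not a bound site, and nothing here measured binding.

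Enterocyte genes were higher in the knockout more often than lower, but the list did not move as 1 block. Of the 32 tested genes, 15 rose and 3 fell at an adjusted p under 0.05, where 19.3% of all 14017 genes tested rose and 19.2% fell (38.4% in either direction). The other 14 did not pass. The median log2 fold change of knockout over wild type was 1.37 over the 32 genes and 0.02 over all genes tested. All 3 knockout libraries lay above all 3 wild-type libraries in 17 of the 32, where 28.2% of all genes tested did, and below them in 4, where 26.6% did. Sis, Mep1b, Adgrg7, Slc2a2 and Slc15a1 are among the 17 and among the 15 that rose. The filter let them in only through the knockout libraries, so their direction is no separate result. The changes ran from genes with no count in wild type (Adgrg7) to Fabp2, which was the most abundant of these genes per length in wild type and fell. The number that rose was 5 of 36 tested without wild type 2 (11% of all genes tested then rose) and 23 of 36 without knockout 1 (15.6%). The number that fell was 1 of 32 without knockout 2 (12%) and 4 of 33 without knockout 3 (14.1%). With wild type 1 and knockout 1 both left out, 23 of 36 rose (23.7%) and 4 fell (24.3%). In both tests without knockout 1, Treh, Mep1a, Apoc3 and Guca2b entered through knockout 2 and 3. They therefore had to differ, and all are among the 23. DESeq2 called 19 higher (20.8%) and 4 lower (21.2%). The number that rose was 6 with limma-voom (18.5%), where the calls of 10 of the 15 ended (limma-voom adjusted p 0.0793 to 0.481). Scaling to total counts, which put the median log2 fold change of all genes at 0.43, gave 18 higher and 1 lower (40.9% and 7.78% of all genes tested).

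**Figure D1:**
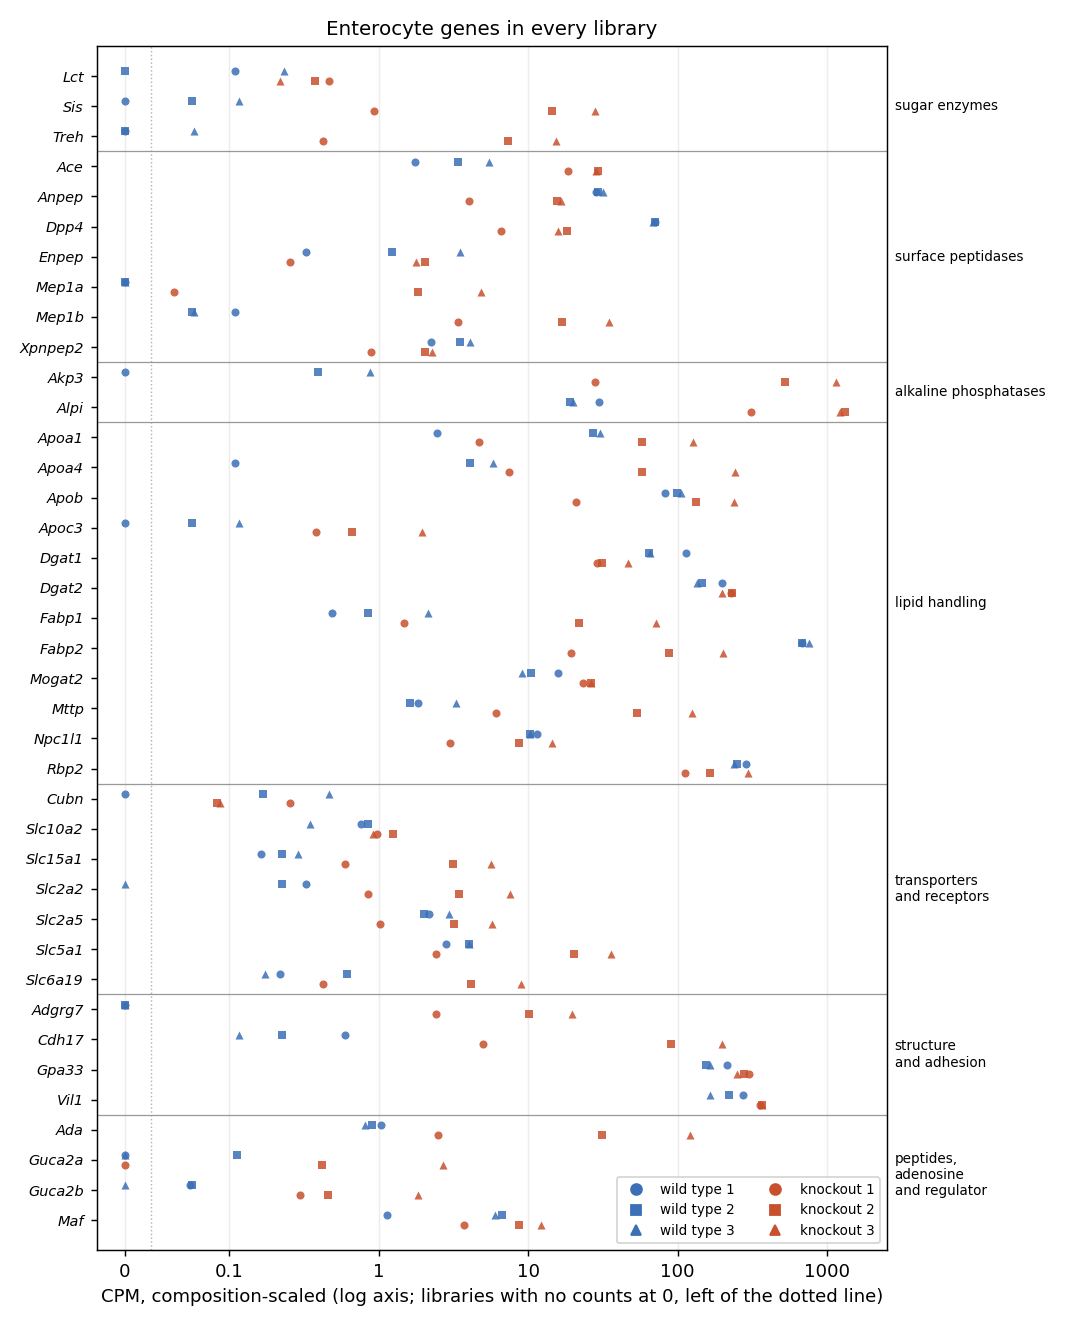
Level of each of the 39 enterocyte genes in every library, in CPM on a log axis, with libraries that had no counts drawn at 0. Blue symbols are wild type and orange symbols knockout, with circle, square and triangle for libraries 1, 2 and 3, and rows are grouped by role. Knockout 1 lies to the left of knockout 2 and 3 in many rows, while Vil1, Gpa33, Mogat2 and Dgat2 show the 3 knockout libraries close together.

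Among the enzymes that split sugars, Sis (sucrase-isomaltase, which splits sucrose and starch fragments) had 0, 0.0562 and 0.116 CPM in wild type 1, 2 and 3, against 0.935, 14.5 and 27.9 CPM in knockout 1, 2 and 3. The genotypes did not overlap, and knockout 1 stood far below the other 2 knockout libraries. With 3 counts in all of wild type against 1009 in the knockout, the ratio was 255, with a 95% interval of 86.9 to 1237 (adjusted p = 0.0174). The interval is exact, and such intervals and bounds cover counting error only. The call ended without any 1 wild-type library (adjusted p 0.0648 to 0.075). Treh, whose enzyme splits trehalose, had 1 count in wild type and 0.425, 7.31 and 15.4 CPM in the knockout, a share of counts 407.5 times higher (72.8 to 16130), but did not pass the filter because knockout 1 held too few counts. Tested with no filter, Treh had an adjusted p of 0.0412. An exon of Treh overlaps Phldb1 on the opposite strand, and whether counting used the strand is not given. Lct (lactase) stayed at 0.467 CPM or less in every library, with overlapping genotypes.

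The peptidases of the cell surface went both ways. Mep1b, the beta subunit of the protease meprin, was at 0.0562 to 0.109 CPM in wild type, against 3.4, 17.0 and 34.8 CPM in knockout 1, 2 and 3, and rose by 7.83 on the log2 scale (SE 1.20, adjusted p = 0.00512), the scale of each rise given below. Mep1a, the alpha subunit, had no counts in wild type and 1, 44 and 111 counts in the knockout libraries, at least 39.4-fold higher if wild type is set to 3 counts in all, and did not pass the filter. With no filter its adjusted p was 0.158. Ace, angiotensin-converting enzyme, was at 1.74, 3.38 and 5.45 CPM in wild type, against 18.6, 29.3 and 28.6 CPM in the knockout, with no overlap and knockout libraries within a factor of 1.58, and rose by 2.86 (SE 0.41, adjusted p = 0.00277). Endothelium also makes Ace, and the 6 endothelial markers summed to 11.6 to 24.0 CPM in wild type, against 46.4 to 65.0 CPM in the knockout. Their part in the rise of Ace was not tested.

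Dpp4, which cuts dipeptides off proline-containing peptides, moved the opposite way. It was at 70.1, 70.4 and 68.8 CPM in wild type, against 6.63, 18.3 and 15.8 CPM in knockout 1, 2 and 3, and fell by 2.36 on the log2 scale (SE 0.36, adjusted p = 0.00384). The wild-type libraries were nearly equal and every knockout library was far below them. Anpep (aminopeptidase N) lay lower in all 3 knockout libraries too, at 4.04, 15.7 and 16.5 CPM against 28.5 to 31.6 CPM in wild type, but did not pass (log2 fold change -1.30, SE 0.50, adjusted p = 0.0861). It passed without knockout 1 (-0.88, adjusted p = 0.00387). Enpep (aminopeptidase A) and Xpnpep2, which removes residues ahead of proline, overlapped between genotypes, at log2 fold changes of -0.30 (SE 0.95, adjusted p = 0.824) and -0.91 (SE 0.45, adjusted p = 0.151).

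The intestinal alkaline phosphatases, which sit on the brush border and remove phosphate from lipids and bacterial lipopolysaccharide, had the highest knockout levels of these genes per length. Akp3 was at 0, 0.394 and 0.87 CPM in wild type, against 28.0, 525 and 1139 CPM in knockout 1, 2 and 3, and rose by 10.39 (SE 1.94, adjusted p = 0.0121). Its call ended without wild type 2 (adjusted p = 0.0538). Alpi was already present in wild type, at 19.2 to 29.6 CPM, and stood at 308, 1309 and 1214 CPM in knockout 1, 2 and 3, a rise of 5.36 (SE 0.67, adjusted p = 0.0030) that passed in every setting tried. The genes lie next to each other on chromosome 1 (Alpi at 87098002 to 87101606 on the minus strand, Akp3 at 87124973 to 87127912 on the plus strand, mm10), 23366 bases apart. Knockout 1 held 25.4% of the knockout 3 level of Alpi but 2.46% of that of Akp3. The enzymes are closely related, and reads that fit both genes could be split between them by the authors' counting.

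**Figure D2:**
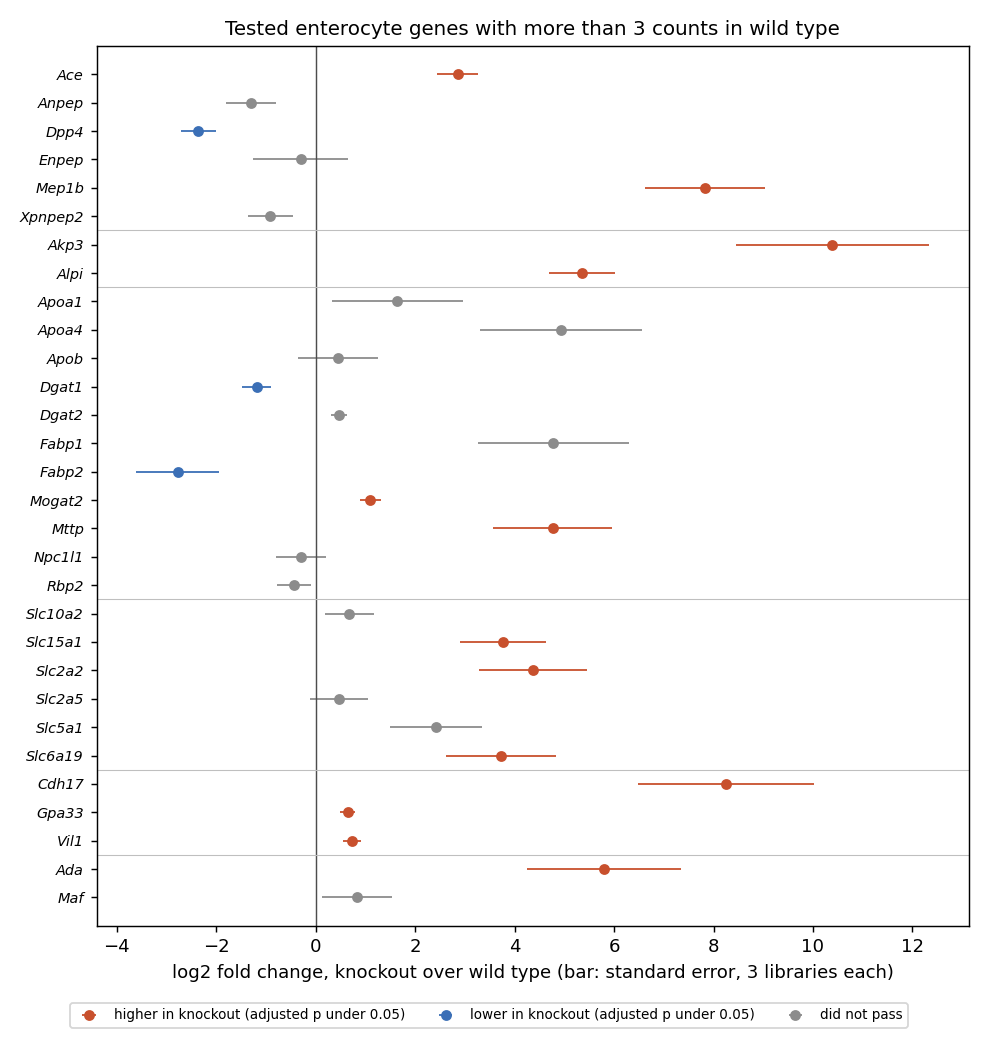
Log2 fold change of knockout over wild type for the 30 tested enterocyte genes with more than 3 counts in wild type, with standard errors from the edgeR fit over 3 libraries a genotype. Orange marks genes that rose, blue genes that fell and grey genes that did not pass, and bars are longest for genes such as Akp3 that the knockout libraries held at unequal levels.

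Genes of fat handling held both the strongest fall and several large differences that did not pass. Fabp2, the intestinal fatty acid-binding protein, was at 679, 677 and 754 CPM in wild type, against 19.4, 87.0 and 202 CPM in knockout 1, 2 and 3, and fell by 2.78 on the log2 scale (SE 0.83, adjusted p = 0.049). The genotypes did not overlap, and knockout 3 held 10.4 times the level of knockout 1. The call ended without any 1 wild-type library (0.108 to 0.11), without knockout 2 (0.146), with RLE scaling (0.0514), with total counts (0.0615) and with no filter (0.116). Fabp1, the liver-type protein, was at 0.489, 0.844 and 2.15 CPM in wild type, against 1.49, 22.0 and 72.1 CPM in the knockout, so knockout 1 lay inside the wild-type range (log2 fold change 4.78, SE 1.51, adjusted p = 0.0576). It passed without knockout 1 (5.35, adjusted p = 0.00962). Rbp2, which carries retinol in enterocytes, overlapped, at 287.8, 248 and 237 CPM against 111, 165 and 295 CPM (-0.44, SE 0.34, adjusted p = 0.348). It passed as lower without knockout 3 (-0.90, adjusted p = 0.0187). Npc1l1, the cholesterol uptake receptor, also overlapped, at 10.3 to 11.4 CPM against 3.02, 8.69 and 14.5 CPM (-0.29, SE 0.50, adjusted p = 0.674).

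The acyltransferases that rebuild fat differed from each other. Mogat2, which joins fatty acid to monoglyceride, was at 15.8, 10.5 and 9.11 CPM in wild type, against 23.3, 26.3 and 26.2 CPM in the knockout, and rose by 1.10 (SE 0.21, adjusted p = 0.0064) with knockout libraries within a factor of 1.13. Dgat1, which makes triglyceride in enterocytes, fell by 1.18 on the log2 scale (SE 0.29, adjusted p = 0.0191), from 114, 63.9 and 65.8 CPM to 29.1, 31.4 and 46.9 CPM. Its call ended without knockout 1 (0.0538), without knockout 2 (0.0687) and with total counts (0.0637). Dgat2, the neighbour of Mogat2 on chromosome 7 and a second triglyceride enzyme, was at 196.7, 145 and 135 CPM in wild type, against 228, 233 and 199 CPM in the knockout. All knockout libraries were above all wild-type ones, yet the difference of 0.47 (SE 0.16) just missed the threshold (adjusted p = 0.0518). It passed without wild type 1 (0.64, adjusted p = 0.00647) and under 6 of the other scalings, filters and tests.

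Among the genes of chylomicron assembly, Mttp, the protein that loads lipid onto apolipoprotein B, rose by 4.77 (SE 1.20, adjusted p = 0.0298). It was at 1.85, 1.63 and 3.31 CPM in wild type, against 6.08, 53.7 and 125 CPM in knockout 1, 2 and 3. The call ended without any 1 wild-type library, knockout 2 or knockout 3 (0.0551 to 0.105) and with no filter (0.0772), and an exon of Mttp overlaps Trmt10a on the other strand. Apob itself was at 82.1, 99.7 and 106 CPM in wild type, against 20.9, 132 and 239 CPM in the knockout, with knockout 1 below and knockout 2 and 3 above all wild-type libraries (log2 fold change 0.45, SE 0.81, adjusted p = 0.694). Without knockout 1 it passed as higher (0.95, adjusted p = 0.0319), and without knockout 3 its sign turned (-0.32, adjusted p = 0.791). Apoa4, an apolipoprotein made after fat meals, was at 0.109, 4.11 and 5.86 CPM in wild type, against 7.48, 57.4 and 241 CPM in the knockout (4.93, SE 1.63, adjusted p = 0.0649), and passed without knockout 1 (5.49, adjusted p = 0.0338). Apoa1, the main protein of high-density lipoprotein, was at 2.45, 27.3 and 30.3 CPM and 4.67, 57.5 and 126 CPM (1.65, SE 1.33, adjusted p = 0.374), with the library numbered 1 the lowest of each genotype. Apoc3, which slows lipoprotein clearance, had 3 counts in wild type and 0.382 to 1.96 CPM in the knockout, a ratio of 17.7 (5.81 to 87.8), and did not pass the filter. With no filter its adjusted p was 0.0147.

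Of the carriers that take nutrients into the cell, 3 of 6 tested rose and none fell, where 19.3% and 19.2% of all genes tested did, and 6 genes are too few to read from a count of 0. Slc2a2 and Slc15a1, among the 3, entered the test only through the knockout libraries, so their direction is no separate result. Slc2a2, the glucose transporter of the basal membrane, was at 0.326, 0.225 and 0 CPM in wild type, against 0.85, 3.45 and 7.59 CPM in the knockout, and rose by 4.37 (SE 1.09, adjusted p = 0.0191). Slc15a1, the proton-driven peptide transporter, rose by 3.77 (SE 0.86, adjusted p = 0.0126), from 0.163 to 0.29 CPM to 0.595, 3.16 and 5.67 CPM. Slc6a19, the carrier of neutral amino acids, rose by 3.72 (SE 1.11, adjusted p = 0.0369), from 0.217, 0.619 and 0.174 CPM to 0.425, 4.16 and 8.98 CPM, with knockout 1 inside the wild-type range. The calls of all 3 ended without wild type 2 (0.0563 to 0.0786). That of Slc2a2 also ended without knockout 3 (0.0521), and that of Slc6a19 when wild type 1 or 3 or knockout 2 or 3 was left out (0.0753 to 0.121) and with no filter (0.0642).

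Slc5a1, the sodium-glucose carrier, showed the same kind of split without passing. It was at 2.83, 4.05 and 4.0 CPM in wild type, against 2.42, 20.2 and 35.8 CPM in knockout 1, 2 and 3 (log2 fold change 2.42, SE 0.93, adjusted p = 0.092), and it passed without knockout 1 (2.95, adjusted p = 0.00115). Slc2a5, the fructose carrier, overlapped at 2.03 to 2.96 CPM against 1.02, 3.2 and 5.71 CPM (0.47, SE 0.58, adjusted p = 0.55). Slc10a2, the bile acid carrier of the ileum, was at 0.348 to 0.844 CPM and 0.916 to 1.25 CPM (0.68, SE 0.49, adjusted p = 0.307). Cubn, a receptor for vitamin B12 with its binding protein, had 11 counts in wild type and 10 in the knockout. These low levels leave little room to see a difference.

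All 4 genes of structure and adhesion rose, in 2 different ways, where 19.3% of all genes tested rose. So few genes cannot be read as a share, and Adgrg7 entered the test only through the knockout libraries. Cdh17, an intestinal cadherin, was at 0.598, 0.225 and 0.116 CPM in wild type, against 5.01, 90.2 and 199 CPM in knockout 1, 2 and 3, and rose by 8.24 (SE 1.77, adjusted p = 0.0186). Adgrg7, an adhesion receptor, had no counts in wild type and 2.42, 10.1 and 19.7 CPM in the knockout, at least 190-fold higher if wild type is set to 3 counts in all (adjusted p = 0.0139). Vil1 (villin, which bundles actin in microvilli) was abundant in both genotypes, at 276, 221 and 164 CPM and at 355, 368 and 369 CPM, and rose by 0.72 (SE 0.18, adjusted p = 0.0175). Gpa33, a cell surface antigen of intestinal epithelium, rose by 0.64 (SE 0.15, adjusted p = 0.0127), from 213, 154 and 164 CPM to 299, 279 and 251 CPM. Cdh17 and Adgrg7, near 0 in wild type, were held unequally by the knockout libraries, while Vil1 and Gpa33, abundant in wild type, were held evenly. The call of Cdh17 ended without any 1 wild-type library (0.0697 to 0.0717) and with no filter (0.0521), that of Adgrg7 without knockout 2 (0.0511) and with no filter (0.0536), that of Gpa33 without wild type 2 (0.0546), and that of Vil1 without wild type 2 (0.0653) or knockout 2 (0.0547). An exon of Vil1 overlaps Usp37 on the other strand.

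The last 4 genes are signals and a regulator of enterocytes. Ada, adenosine deaminase, which inactivates adenosine, was at 1.03, 0.9 and 0.812 CPM in wild type, against 2.51, 31.4 and 120 CPM in knockout 1, 2 and 3, and rose by 5.80 (SE 1.55, adjusted p = 0.0358). The call ended without any 1 wild-type library (0.112 to 0.118), without knockout 2 (0.0714) and with no filter (0.0904). Guca2a and Guca2b, the hormones guanylin and uroguanylin that drive fluid secretion, had 2 counts each in wild type. Guca2a was at 0, 0.416 and 2.7 CPM and Guca2b at 0.297, 0.457 and 1.83 CPM in the knockout, ratios of 27.3 (7.28 to 229.5) and 22.7 (6.02 to 192), and neither passed the filter. With no filter the adjusted p was 0.136 for Guca2a and 0.0147 for Guca2b. Maf, a transcription factor that acts in enterocytes and in macrophages, overlapped at 1.14, 6.69 and 6.03 CPM against 3.7, 8.73 and 12.3 CPM (0.83, SE 0.70, adjusted p = 0.383). It passed without both libraries numbered 1 (0.70, adjusted p = 0.0374).

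The knockout libraries themselves fell into a pattern that most of these genes shared. Of the 39, 36 had a knockout mean of at least 1 CPM, and 26 of these had knockout 1 lowest, knockout 2 between and knockout 3 highest, with knockout 3 at least 2 times knockout 1. That held for 5.44% of the 12791 tested genes at that level, and 4 of the 26 were not among the tested genes. Another 7 had all 3 libraries within a factor of 2 (Ace, Mogat2, Dgat1, Dgat2, Slc10a2, Vil1 and Gpa33), which held for 86.9% of tested genes, and 3 did neither (Dpp4, Enpep and Alpi, a class that held 7.7%). Dpp4, Enpep and Alpi had knockout 1 lowest but knockout 2 above knockout 3. Replicates have no order, so this says which libraries held more, not that anything increased over them. The genes were chosen with earlier results known and in order to divide them by this pattern. The shares therefore describe the list and are no test of it. Of the 15 genes that rose, 10 were unequal in this way, 4 were even (Ace, Mogat2, Vil1 and Gpa33) and 1 was Alpi. With limma-voom the calls of those 10 ended, and those of the other 5 did not.

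The unequal genes differed in how far knockout 1 and 2 lay below knockout 3. In the 26 unequal genes knockout 2 was at 15.4% to 94.8% of the knockout 3 level, with a median of 47%, and in 17 of them between 40% and 60%, a band chosen after the values were seen and given as a description only. Those 17 were 47.2% of the 36 genes with a knockout mean of at least 1 CPM. Of all tested genes at that level, 2.2% lay in the band. Sis was at 51.9%, Mep1b at 48.7%, Akp3 at 46.1%, Cdh17 at 45.4%, Mttp at 43% and Slc15a1 at 55.7%. Genes below the band were Mep1a (37.8%), Apoc3 (33.9%), Fabp1 (30.5%), Ada (26.1%), Apoa4 (23.8%) and Guca2a (15.4%). Knockout 1 relative to knockout 3 spread much more, from no counts for Guca2a and 0.878% for Mep1a over 2.08% for Ada, 3.35% for Sis and 9.75% for Mep1b to 37.9% for Rbp2 and 39.3% for Xpnpep2. Fabp2, which fell, had the same order within the knockout: knockout 1 held 9.61% and knockout 2 43.2% of its knockout 3 level. Among the 7 even genes, knockout 1 was at 62% to 119% of knockout 3.

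**Figure D3:**
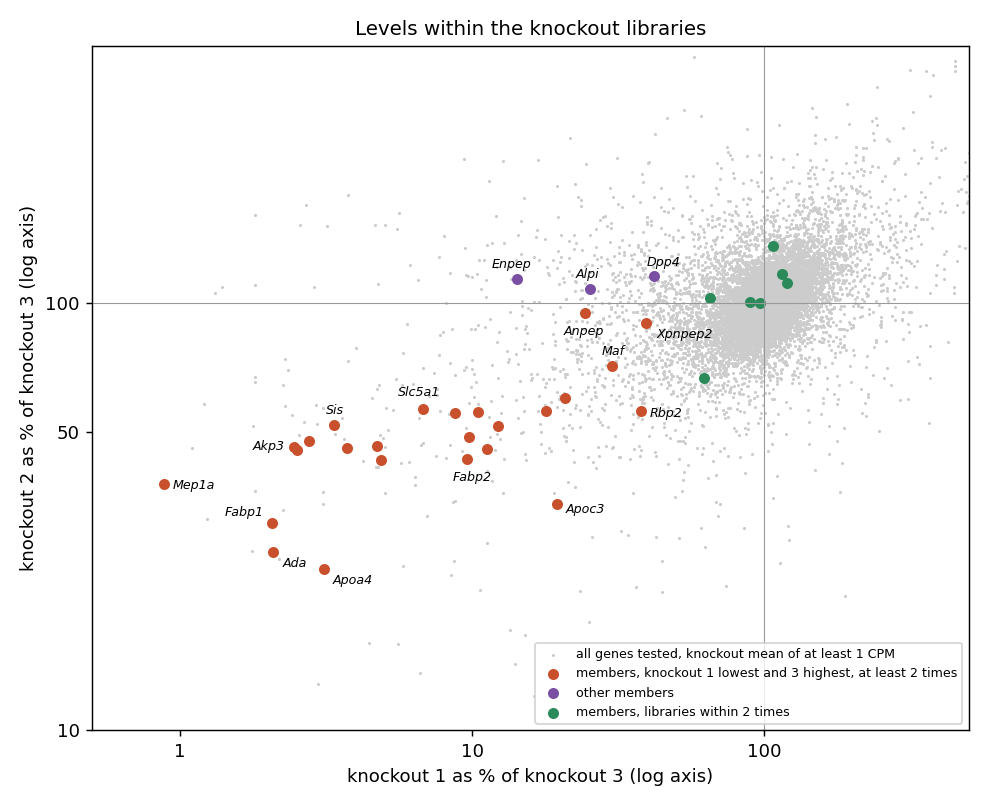
Level in knockout 1 (x axis) and in knockout 2 (y axis) as a percentage of the level in knockout 3, both on log axes, for enterocyte genes with a knockout mean of at least 1 CPM and counts in every knockout library (coloured) and all other tested genes at that level (grey, some outside the axes). Most tested genes lie near 100% on both axes, while the orange enterocyte genes, those with knockout 1 lowest and knockout 3 highest, lie between 0.878% and 39.3% on the x axis and mostly near 50% on the y axis.

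The order of levels among these genes differed between the genotypes, given here as means with no test. Per kilobase of annotated exon, Fabp2 was the highest of the 39 in wild type, at 729 CPM per kb, followed by Rbp2 (268), Gpa33 (64.6), Vil1 (62.0) and Dgat2 (51.6). In the knockout the highest were Alpi (404 CPM per kb) and Akp3 (269), followed by Rbp2 (198), Fabp2 (106), Vil1 (103) and Gpa33 (101). In wild type the library ranges of Fabp2 and of Rbp2 did not overlap the next gene in order, while those of Gpa33, Vil1 and Dgat2 overlapped, and in the knockout each of the 6 overlapped its neighbour in order. Sis and Lct, the classical disaccharidases, were at 1.93 and 0.0551 CPM per kb in the knockout, far below the phosphatases. The neighbours Apoa1, Apoc3 and Apoa4 lie within positions 46228580 to 46243459 of chromosome 9 (mm10), and their knockout means were 50.7, 0.989 and 56.2 CPM per kb, against 16.2, 0.0566 and 1.85 CPM per kb in wild type.

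Other enterocyte genes, given next, also held rises and falls. Of 58 further genes of brush border structure, solute carriage, digestive enzymes and lipid handling, 49 were tested, 19 rose, 10 fell and 20 did not pass, with a median log2 fold change of 0.90. The share that fell was near that of all genes tested (19.2%), and 19.3% of all genes tested rose. Among enzymes, 8 of 13 rose and 1 fell. Mgam, maltase-glucoamylase, was at 0.406 to 0.45 CPM in wild type, against 22.2, 69.1 and 124 CPM in the knockout (log2 fold change 7.36, SE 0.87, adjusted p = 0.00275), and rose. Tmprss15, the enteropeptidase that activates trypsinogen, had 2 counts in wild type and a ratio of 107 (29.3 to 886, adjusted p = 0.00566). Gda, guanine deaminase, rose by 2.35 (SE 0.43) and the carboxylesterase gene Ces2e by 4.55 (SE 0.79). Among solute carriers, 6 of 12 rose and 2 fell. The amino acid exchanger gene Slc7a9 had 1 count in wild type and a ratio of 276.5 (49.3 to 10950, adjusted p = 0.0098). Slc7a7, its relative of the basal membrane, was at a log2 fold change of 0.90 (SE 0.17) and Slc6a20a and Slc16a10, carriers of proline and of aromatic amino acids, at -1.68 (SE 0.17) and -1.60 (SE 0.25). In brush border structure 4 of 11 rose and 2 fell, with the protocadherin gene Cdhr2 at 4.79 (SE 0.84), Eps8 at 1.07 (SE 0.18), the actin bundler Pls1 at -1.73 (SE 0.10) and the scaffold gene Anks4b at -0.57 (SE 0.11). Of the genes that rose, Mgam, Tmprss15, Cyp3a11, Ceacam20, Slc7a9, Slc28a2 and Myo7b entered the test only through the knockout libraries. Their direction is therefore no separate result.

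Of 13 tested lipid genes outside the main list, 5 fell and 1 rose, where 19.2% and 19.3% of all genes tested did, and their median log2 fold change was -0.14. This difference from other genes was not tested. The 4 with the smallest adjusted p were lower: Sar1b, needed to carry chylomicrons out of the endoplasmic reticulum, at -0.98 (SE 0.11, adjusted p = 8.71e-04), Apobec1, the editing enzyme of Apob RNA, at -1.21 (SE 0.14), Pla2g12b, a lipoprotein assembly factor, at -1.70 (SE 0.20) and Soat2, the cholesterol esterifying enzyme, at -0.88 (SE 0.22, adjusted p = 0.0161). Of the 58 genes, 52 were tested without a wild-type library and 49 in the other settings given here. The share of all genes tested that rose is in brackets. Left out, wild type 1 gave 12 higher (21%), wild type 2 gave 7 (11%) and wild type 3 gave 8 (13.2%). Without knockout 2, 8 rose (12.6%), and without knockout 3, 11 did (14.5%). With limma-voom 4 rose (18.5%). With total counts 29 rose (40.9%) and 6 fell, where 7.78% of all genes tested fell. The call of Soat2 ended without knockout 2 (0.0613) and with total counts (0.109), that of Anks4b with total counts (0.294) and that of Slc7a9 without wild type 2 (0.0683). With limma-voom the calls of Mgam, Tmprss15, Ces2e, Slc7a9 and Cdhr2 ended (0.0703 to 0.132).

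The factors that set intestinal identity were split between those at or near 0 in wild type and those already present. Cdx1 had no counts in wild type and 0.0425, 1.83 and 6.15 CPM in knockout 1, 2 and 3, and Cdx2 was at 0.217, 0.225 and 0.348 CPM in wild type, against 0.085, 10.5 and 11.7 CPM. Knockout 1 was therefore below the wild-type level of Cdx2 while knockout 2 and 3 were far above it. Neither passed the filter. Without knockout 1 both passed the test, at adjusted p = 0.00742 for Cdx1 and 3.06e-04 for Cdx2, though genes that enter the test through those 2 libraries had to differ. Isx, a factor of the intestinal vitamin A pathway that is given here after its values were seen, rose by 5.23 (SE 1.12, adjusted p = 0.0113), from 0.0562 to 0.272 CPM to 0.68, 5.65 and 8.98 CPM, and its call ended without wild type 2 (0.0564), without wild type 3 (0.0505) and with limma-voom (0.19). Isx entered the test only through the knockout libraries, so its direction is no separate result.

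Hnf4a, which acts on many enterocyte promoters, was at 172, 150 and 159 CPM in wild type, against 186, 204 and 230 CPM in the knockout, and rose by 0.36 (SE 0.12, adjusted p = 0.0412). Its call ended when any of wild type 2 and 3 and knockout 2 and 3 was left out (0.101 to 0.13). Its relative Hnf4g was at 11.2 to 16.2 CPM and 7.22, 14.8 and 17.4 CPM (0.02, SE 0.33, adjusted p = 0.967). Of 20 tested factors 6 rose and 4 fell, where 19.3% and 19.2% of all genes tested did, so the share that fell was near that of all genes. Gata5 (0.79, SE 0.16) was higher and Nr1h4, the bile acid receptor (-1.43, SE 0.15), and Gata6 (-0.68, SE 0.11) were lower. With total counts 12 rose and 1 fell, against 40.9% and 7.78% of all genes tested, and the call of Gata6 ended (0.0734). With wild type 2 or 3 left out, 3 of 22 tested factors rose, where 11% and 13.2% of all genes tested did. The share of factors that rose was then near that of all genes. With wild type 2 or any 1 knockout library left out, 2 of 20 to 22 tested factors fell, where 12% to 15.7% of all genes tested did.

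Several markers of other intestinal cells were also held unequally by the knockout libraries. The goblet genes Spdef, Clca1 and Fcgbp were even, within a factor of 2. Of 8 Paneth cell markers (antimicrobial cells of the small intestinal crypt), 7 were higher in knockout 2 and 3 than in every other library, and the list summed to 2.93 to 5.96 CPM in wild type, against 3.27, 66.5 and 312 CPM in knockout 1, 2 and 3. The share of all genes tested with this order was not computed, so this count and the goblet count below describe the lists only. The defensin gene Defa24 and Ang4 had no counts in wild type or in knockout 1, and stood at 11.6 and 65.7 CPM and at 6.19 and 41.0 CPM in knockout 2 and 3, while Defa30 had 2 counts in wild type 3 only and none in knockout 1. Of 8 goblet cell markers, 4 were highest in knockout 2 and 3: Muc2, the intestinal mucin, at 0.212, 32.9 and 81.5 CPM in knockout 1, 2 and 3 and 0.232 to 0.978 CPM in wild type, Tff3 at 5.99, 78.9 and 164 CPM, Atoh1 at 0, 1.25 and 1.7 CPM, and Spdef at 39.0, 44.3 and 64.8 CPM. Of these 4, Tff3 and Spdef passed the test as higher, Muc2 did not (adjusted p = 0.0647) and Atoh1 was not tested. The other 4 went differently. Clca1 fell by 0.62 on the log2 scale (SE 0.20, adjusted p = 0.0449), and Zg16 was at 245 to 589 CPM in wild type and at 3.19, 61.3 and 124.5 CPM in knockout 1, 2 and 3, below wild type in all of them without passing (log2 fold change -2.79, SE 1.20, adjusted p = 0.124). Fcgbp and Spink4 overlapped between genotypes. The whole goblet list, which Clca1 dominated in both genotypes, summed to 3591 to 5986 CPM in wild type, against 2649 to 4086 CPM in the knockout. Their part in the enterocyte values was not tested.

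Of the colon markers, Car1 had no counts in any library, Aqp8 had 1 count in wild type 1 and Saa1 had 1 count each in knockout 1 and 2, while Slc26a3, a chloride exchanger of small and large intestine, gave nearly all of the list's 185.5 CPM in knockout 3. Ms4a12 was at 0.29 to 0.562 CPM in wild type, against 0.17, 0.665 and 1.31 CPM in knockout 1, 2 and 3, and did not pass. Cyp2c55 was at 1.58 to 2.59 CPM in wild type and 0.467 to 0.829 CPM in the knockout. It fell by 1.89 on the log2 scale (SE 0.45, adjusted p = 0.0148). The 8 hepatocyte markers summed to 37.0 to 41.2 CPM in wild type, against 20.8 to 68.8 CPM in the knockout. Ttr made up most of these sums, at 30.6 to 35.55 CPM in wild type, against 18.8 to 35.0 CPM in the knockout. Alb was at 3.59 to 5.74 CPM in wild type, against 0.722, 3.87 and 7.59 CPM in knockout 1, 2 and 3. Both overlapped between genotypes. Cps1, which small intestinal epithelium also makes, was at 0.552, 8.06 and 24.6 CPM in knockout 1, 2 and 3. It passed as higher, as did Apoa2 (adjusted p = 0.0307 and 0.0484). Cps1 and Apoa2 entered the test only through the knockout libraries, so their direction is no separate result. Fgb, Ahsg and Serpina1a were at most at 0.0436, 0.1745 and 0.349 CPM, and Tat, not tested, was lower in every knockout library. The 8 pancreatic acinar markers summed to 0.706 to 9.34 CPM in wild type, against 0.208 to 0.872 CPM in the knockout, with Cpa1 at 0 in all libraries. The 7 blood cell markers summed to 3.97 to 22.6 CPM in wild type, against 26.5 to 44.8 CPM in the knockout and were highest in knockout 1. The 7 squamous markers summed to 4.76 to 9.4 and 151 to 167 CPM. Ivl, a stratified epithelium gene, was 66.3 to 134 CPM in the knockout. Krt13 was at 12.15, 52.1 and 76.5 CPM and Krt4 at 3.19, 6.36 and 8.81 CPM in knockout 1, 2 and 3. Ivl, Krt13, Krt4 and Krt14 passed as higher (adjusted p = 1.54e-04, 0.0279, 0.00153 and 0.00806). Krt4 and Krt14 entered the test only through the knockout libraries. Krt5, Lor and Trp63, not tested, were at most at 0.567, 0.34 and 0.291 CPM. The part of blood cells and stratified epithelium in the values of Ada, Dpp4, Anpep and Maf, which such cells also make, was not tested.

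**Figure D4:**
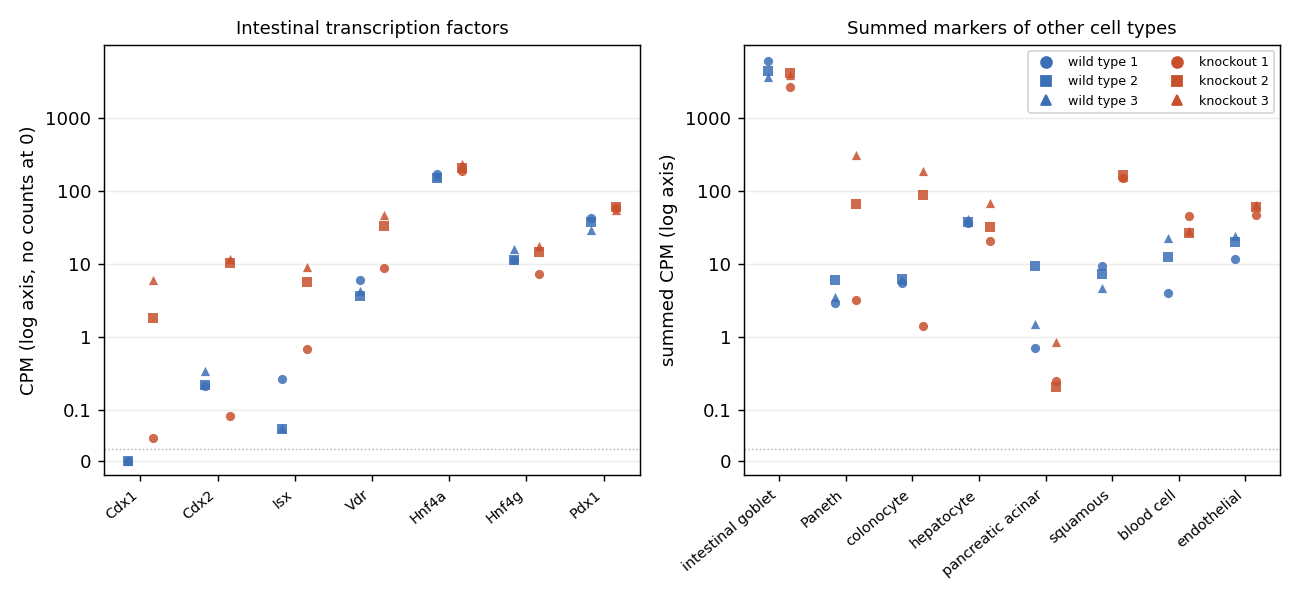
Left, level of 7 intestinal transcription factors in every library, in CPM on a log axis with no counts at 0; right, summed CPM of marker lists of 8 other cell types on a log axis. Blue is wild type, orange knockout, with circle, square and triangle for libraries 1, 2 and 3. Cdx1, Cdx2 and the Paneth and colonocyte sums separate knockout 2 and 3 from knockout 1, which lies near or below the wild-type libraries, while Hnf4a and the squamous sum do not.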

How the data were processed

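Gastric antrum mucosa was measured by bulk mRNA sequencing, in 3 libraries from Muc6 +/+ and 3 from Muc6 -/- mice. The deposited table holds estimated counts per gene and library (28.8% to 34.2% of non-zero values not whole), made by the authors on mm10, per the submitters' processing notes. Names of the aligner and counter, and the strand setting, were not given in the sources used here. The Ensembl gene IDs were matched to GENCODE M21 (mm10), which named 34652 of 34866. The 214 unmatched IDs held at most 0.0296% of a library's counts and gave no named gene.

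Estimated counts as deposited were rounded and tested with edgeR 4.0.16 in R 4.3.3 (filterByExpr with a minimum count of 10, TMM scaling, robust quasi-likelihood test, genotype only, all 6 libraries). P-values were adjusted over all genes tested by Benjamini-Hochberg, with calls at 0.05. Every adjusted p is from this test unless another is named. SE is the log2 fold change divided by the square root of F. CPM is the count scaled by TMM-adjusted library size. For genes with 1 to 3 wild-type counts the text gives a ratio of summed counts, each divided by summed library size, with an exact 95% interval, and for genes with none a bound with 3 counts put in wild type. Alternatives were RLE, upper quartile and total-count scaling, other filters, DESeq2 1.42.0, limma-voom (limma 3.58.1), a replicate block and leaving out libraries. Promoters came from RefSeq (GRCm38.p6).

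All 39 genes are named. Of each further list, a rule named up to 4 called genes with the smallest adjusted p, besides Cdx1, Cdx2, Hnf4a and Hnf4g; 1 gene the rule named is not reported here. The gene lists and members were chosen with earlier results of these data known. No pair of libraries within a genotype was alike within sampling noise, so none was treated as a repeat deposit of another; this does not show that they are separate animals.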

Additional observations from a re-analysis of the deposited data

How the results depend on the processing

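In place of 15 higher genes of the main list there were 6 with limma-voom, 23 without both libraries numbered 1, 4 at an adjusted p of 0.01, and 5 to 23 when 1 library was left out. In place of 3 lower genes there was 1 with total counts, 1 at 0.01, and 1 to 4 when 1 library was left out. For the further enterocyte genes, 19 higher became 29 with total counts, 4 with limma-voom, 30 without both libraries numbered 1, 7 at 0.01 and 7 to 28 with 1 library left out, and 10 lower became 6 with total counts and 8 to 10 with 1 library left out. For the factors, 6 higher became 12 with total counts, 12 without both libraries numbered 1, 2 at 0.01, 10 at 0.10 and 3 to 9 with 1 library left out, and 4 lower became 1 with total counts, 2 at 0.01 and 2 to 3 with 1 library left out. Where 1 library was left out, the test had 5 libraries and its own filter, which took in 32 to 36 genes of the main list. Some of these entered only through the knockout libraries that were kept. Of all genes tested, 11% to 21% then rose and 12% to 20.4% fell. The shares that rose and fell were 40.9% and 7.78% with total counts, and 23.7% and 24.3% without both libraries numbered 1. With limma-voom they were 18.5% and 19.2%. Shares at 0.01 and 0.10 are not given. The counts do not say that the genes were the same.

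Signs turned in 4 genes that did not pass with edgeR on all libraries: Enpep (0.12 with total counts, 0.77 without wild type 3, 0.19 without knockout 1), Npc1l1 (0.13 with total counts, 0.12 without knockout 1, 0.14 without both libraries numbered 1), Apob (-0.13 with limma-voom, -0.069 with the block, -0.32 without knockout 3) and Slc2a5 (-0.17 without knockout 3). The causes were not tested. Without 1 library the values ran from -0.79 to 0.77 for Enpep, -0.86 to 0.12 for Npc1l1, -0.32 to 0.95 for Apob and -0.17 to 0.90 for Slc2a5. Over the 18 called genes, the call held in 213 of the refits and ended in the other 54.

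The replicate numbers were not taken to pair the libraries: same-numbered libraries correlated at 0.252, 0.091 and 0.191 in their deviations from genotype means, and knockout 2 correlated best with wild type 3 (0.275). With the replicate block 18 of the main genes rose and 3 fell (18.3% and 17.8% of all genes tested), 16 and 10 of the further enterocyte genes and 6 and 3 of the factors. In the main list the block ended the call of Slc2a2 (0.0654), and Apoa1 (0.0115), Apoa4 (0.00304), Fabp1 (0.0112) and Dgat2 (0.0368) passed with it. In the other lists it ended the calls of Ceacam20, Slc26a6, Slc3a1 and Slc46a1 (0.0531 to 0.0882), Hnf4a (0.0767) and Klf4 (0.066), and Cobl (0.0242) and Klf5 (0.0471) passed with it. Limma-voom ended the calls of the factors Isx (0.19) and Vdr (0.138).

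The split of the knockout libraries was not sensitive to scaling: 25 genes were unequal with RLE and 26 with total counts, and 27 and 24 were at ratios of 1.5 and 3 in place of 2. Wild-type totals of 4 counts or fewer limit how well the fold changes of Sis, Mep1b and Adgrg7 are known.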
